A study of Mus musculus with 6 samples.

Results

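Liver-enriched transcription factors are the regulators that switch on and maintain the hepatocyte programme. This account covers 9 of them, Hnf4a, Foxa1, Foxa2, Foxa3, Cebpa, Nr1h4, Nr1i3, Nr5a2 and Prox1, in 3 related mouse hepatocellular carcinoma lines. The genes were chosen by name, as known regulators of hepatocyte identity, and every probe set whose platform annotation named 1 of them alone was taken. That gave 17 probe sets of 45101, which stand for 9 genes of 18193. Hnf4a and Nr5a2 had 4 probe sets each, Prox1 had 3 and the other genes 1 each. Lines M1 and I1 are subpopulations selected from the parent for their ability to migrate and titled subclone lines, and each was set against the parent line BL185. All were grown in the same medium with serum and were given no other treatment that the labels name. Each line was hybridised to 2 Affymetrix mouse arrays. The labels leave unsaid if both arrays of a line had cultures of their own. The p-values therefore cover array-to-array spread alone, possibly technical spread. Both comparisons use the same BL185 arrays and so are not independent of each other. No unselected subclone was measured, so selection and subcloning cannot be told apart.

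These factors act as a network. Foxa proteins are pioneer factors that open chromatin at liver genes during development. The nuclear receptor Hnf4a and the leucine zipper factor Cebpa then drive plasma protein and metabolic genes, and several members bind and maintain each other's promoters. Nr1h4 (FXR) senses bile acids, Nr1i3 (CAR) senses foreign compounds, Nr5a2 (LRH-1) supports bile acid and cholesterol genes, and Prox1 is a homeobox factor needed for hepatoblast migration in the mouse embryo. Loss of Hnf4a or Cebpa is a known feature of poorly differentiated liver tumours.

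Upstream sequence is shown for the members whose arrays in both selected lines lay apart from those of BL185 and above the array medians. They are Hnf4a, Cebpa and Nr1h4. Hnf4a has a distal and a proximal start, known for use in fetal liver and gut and in adult hepatocytes, and the probe sets are not annotated to either. All 9 genes were matched by symbol to RefSeq promoters of build GRCm38.p6, which gave 14 windows. Each window printed here holds the 250 bases before a start, 5′ to 3′ on the gene's strand. RefSeq places Hnf4a at chr2:163506811-163572907, Cebpa at chr7:35119293-35121928 and Nr1h4 at chr10:89454234-89533645, so the Nr1h4 start shown lies inside the annotated gene. Capitals mark matches, on either strand, to the motifs searched.
Hnf4a distal start (chr2:163506607-163506856, plus strand): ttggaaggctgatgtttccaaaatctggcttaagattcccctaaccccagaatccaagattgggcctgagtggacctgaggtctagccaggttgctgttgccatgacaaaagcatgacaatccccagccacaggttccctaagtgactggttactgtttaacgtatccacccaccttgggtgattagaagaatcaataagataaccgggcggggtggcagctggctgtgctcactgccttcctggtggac
Hnf4a proximal start (chr2:163546905-163547154, plus strand): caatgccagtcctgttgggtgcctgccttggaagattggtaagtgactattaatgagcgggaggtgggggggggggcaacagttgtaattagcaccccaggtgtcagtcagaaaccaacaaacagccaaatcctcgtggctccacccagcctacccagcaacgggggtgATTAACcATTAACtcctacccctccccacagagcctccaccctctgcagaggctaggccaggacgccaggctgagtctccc
Cebpa (chr7:35119043-35119292, plus strand): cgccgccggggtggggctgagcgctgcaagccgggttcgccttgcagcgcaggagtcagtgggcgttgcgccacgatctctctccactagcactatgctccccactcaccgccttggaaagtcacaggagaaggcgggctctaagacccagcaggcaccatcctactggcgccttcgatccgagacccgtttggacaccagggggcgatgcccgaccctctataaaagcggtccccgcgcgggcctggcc
Nr1h4 (chr10:89506659-89506908, minus strand): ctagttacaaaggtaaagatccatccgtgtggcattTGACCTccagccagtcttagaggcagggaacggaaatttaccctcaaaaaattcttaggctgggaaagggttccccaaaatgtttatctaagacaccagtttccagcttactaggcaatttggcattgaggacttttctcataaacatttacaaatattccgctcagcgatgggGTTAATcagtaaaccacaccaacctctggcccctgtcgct

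The motifs searched were TGTTTAC, the core bound by forkhead factors such as Foxa, GTTAAT, an arm of the HNF1 site, TTGCNNAA, bound by C/EBP factors, AGGTCA, the element of many nuclear receptors, and CAAAGTCCA, a core of HNF4 sites. They overlapped nowhere in these windows. The proximal Hnf4a window held GTTAAT on the minus strand at bases -81 to -76 and again at -74 to -69 from the start. The Nr1h4 window held GTTAAT at -40 to -35 and AGGTCA on the minus strand at -214 to -209. The distal Hnf4a and the Cebpa windows held none of the 5 motifs. GTTAAT was present in 4 of the 14 member windows and in 6.43% of 32851 mouse windows of the same length. TGTTTAC was present in 1 member window, that of Foxa1, and in 3.17% of all windows. AGGTCA was found in 2 member windows and 14% of all, TTGCNNAA in 1 and 9.56%, and CAAAGTCCA in 0 and 0.384%. A match is a description of letters, not of binding.

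The values are log2 signals as deposited, and the arrays had medians of 7.87 to 8.11. A signal near or below these cannot be told from background, and signals of different probe sets are not compared with each other because probes bind with different strength. The arrays were unequal in quality. The 2 M1 arrays correlated at r = 0.91 over all probe sets, against 0.994 for I1 and 0.997 for BL185, a description across probe sets, and signals spread least on M1 replicate 1 (SD 1.62, against 1.83 to 1.97 on the other arrays). The 3′ 18S ribosomal RNA control read 12.50 and 10.68 in M1 and 11.27 and 11.51 in I1, against 10.11 and 10.14 in BL185. The 3′ minus 5′ signal of Actb was 1.43 and 1.24 in M1 and 1.47 and 1.43 in I1, against 1.08 and 0.88 in BL185. The part of these differences in the results below was not tested.

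**Figure D1:**
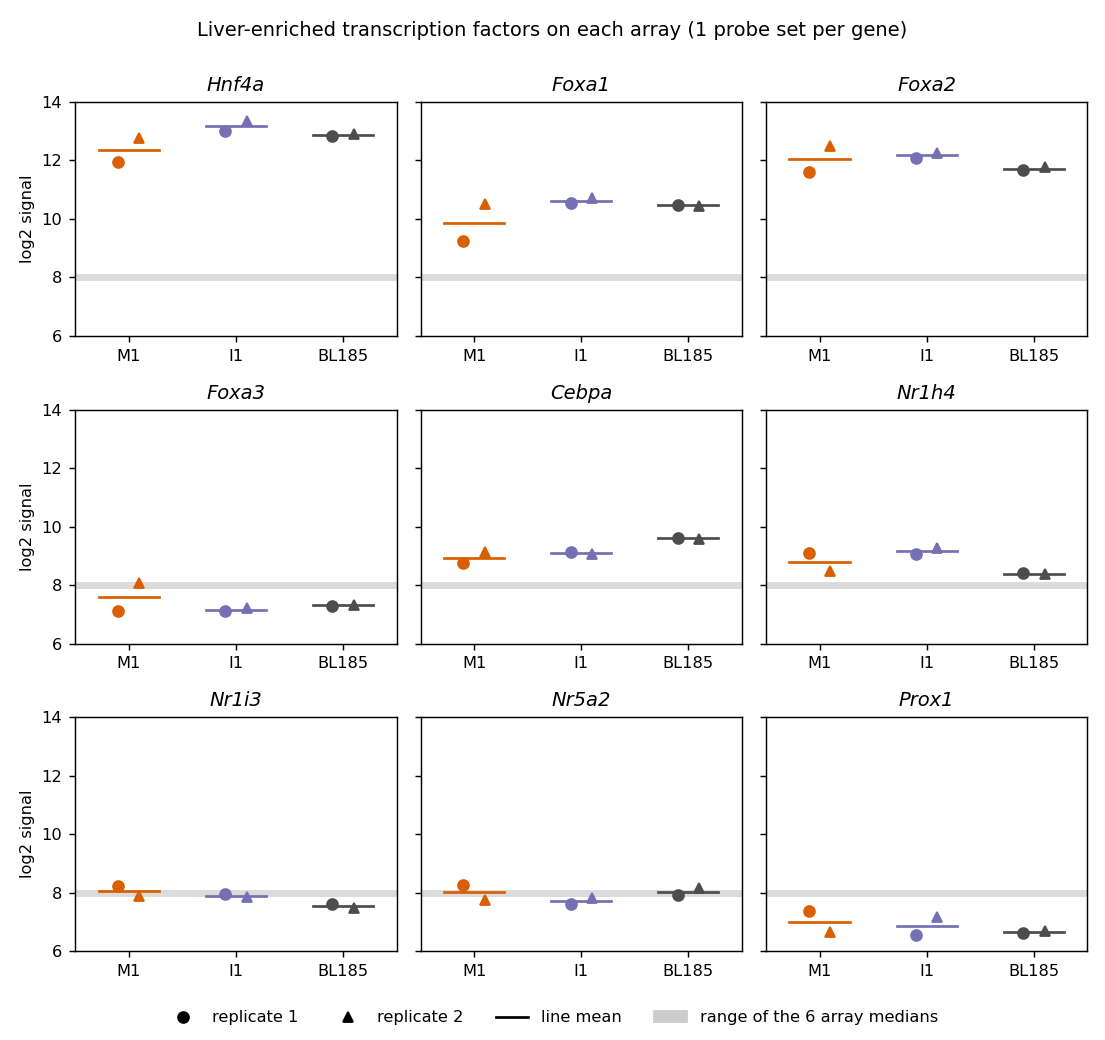
Log2 signal (y axis) of each factor on the 6 arrays, by line (x axis), with points for single arrays, a bar for the mean of the 2 arrays and a grey band for the range of the array medians, 7.87 to 8.11. Hnf4a, Foxa1, Foxa2, Cebpa and Nr1h4 lay above the band on every array, and Foxa3, Nr1i3, Nr5a2 and Prox1 lay near or below it.

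Hnf4a, Foxa1 and Foxa2, which sit at the top of the hepatocyte network, were clearly detected in all 3 lines, and none of the 9 factors passed the test in M1 or in I1. By limma with Benjamini-Hochberg adjustment over all genes at 0.05, 0 of 9 members were called in M1 against BL185, where 0.879% of all genes were called, and 0 of 9 in I1 against BL185, where 0.511% were. Between I1 and M1, 0 of 9 members and 0.00% of all genes were called. At an unadjusted p under 0.05, 1 member passed in each comparison, Cebpa in M1, Nr1h4 in I1 and Hnf4a between I1 and M1, beside 15.4%, 11.6% and 2.25% of all genes. With every probe set tested, 0 of the 17 member probe sets were called in any comparison, beside 0.585%, 0.450% and 0.00% of all probe sets. These counts do not show that the factors were unchanged. The 95% intervals of the log2 changes were wide, from 1.01 units in width for Nr1i3 to 2.18 for Foxa1.

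Hnf4a, the nuclear receptor that anchors hepatocyte gene expression, had log2 signals of 11.94 and 12.76 in M1 and 13.01 and 13.34 in I1, against 12.83 and 12.91 in BL185. Both M1 arrays lay below both BL185 arrays and both I1 arrays lay above them, M1 replicate 2 by 0.11 from the BL185 mean. Each position was common, with 25.7% of all genes lower on both arrays in M1 and 42.6% higher on both in I1. The share of genes that held a position in both lines at once was not counted, here or for the other factors. The log2 change was -0.51 ± 0.32 in M1 (SE, 95% interval -1.32 to 0.29, limma adjusted p = 0.442). In I1 it was 0.31 ± 0.32 (95% interval -0.49 to 1.11, adjusted p = 0.739). I1 exceeded M1 by 0.82 ± 0.32 (95% interval 0.02 to 1.62, limma unadjusted p = 0.0461, adjusted p = 0.9999). In order of mean signal the lines ran I1, BL185 and M1, and neither neighbouring pair differed beyond the spread of this fit.

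The 3 other Hnf4a probe sets did not repeat that order. Probe set 1427000_at read 9.85 and 10.95 in M1 and 11.26 and 11.38 in I1, against 11.38 and 11.35 in BL185, so that I1 overlapped the parent. Probe set 1421983_s_at read 9.50 and 9.31 in M1 and 9.54 and 9.52 in I1, against 9.82 and 10.19 in BL185, lower in both selected lines. Probe set 1450447_at read 9.36 and 8.15 in M1 and 8.39 and 8.76 in I1, against 8.23 and 8.60 in BL185, and there all 3 lines overlapped. In M1, 3 of the 4 probe sets had both arrays below the parent's. All 4 read the same M1 arrays, and the share of all probe sets with that position was not counted. In I1 the log2 changes of the 4 ran from -0.48 to 0.31, and their mean was -0.02. The direction for I1 thus depended on the probe set, and whether the probe sets read different Hnf4a transcripts was not tested.

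**Figure D2:**
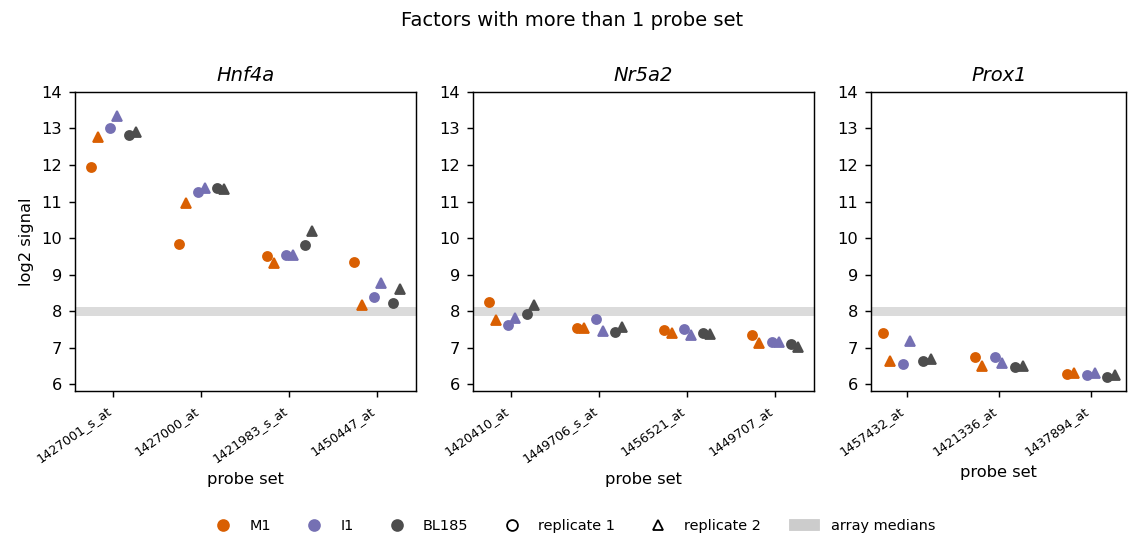
Log2 signal (y axis) of every probe set (x axis) of the 3 factors that had more than 1, with colours for the lines, symbols for the replicates and a grey band for the array medians. The 4 Hnf4a probe sets order the lines differently, and the Prox1 probe sets and all Nr5a2 probe sets but 1420410_at lie at or under the band.

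Foxa1, a forkhead pioneer factor, had log2 signals of 9.23 and 10.52 in M1 and 10.54 and 10.71 in I1, against 10.46 and 10.46 in BL185. M1 replicate 1 alone stood low, 1.23 below the BL185 mean, while M1 replicate 2 lay 0.06 above it. The log2 change was -0.58 ± 0.43 in M1 (SE, limma adjusted p = 0.469) and 0.17 ± 0.43 in I1 (adjusted p = 0.88). Foxa2, the forkhead factor that acts first in endoderm, had 11.61 and 12.48 in M1 and 12.08 and 12.27 in I1, against 11.66 and 11.77 in BL185. Both I1 arrays and M1 replicate 2 lay above both BL185 arrays, and M1 replicate 1 lay just below them. Its log2 change was 0.33 ± 0.32 in M1 (SE, 95% interval -0.48 to 1.13, adjusted p = 0.543) and 0.46 ± 0.32 in I1 (95% interval -0.35 to 1.26, adjusted p = 0.664). Foxa2 was the member whose call changed with the scaling of the arrays. After cyclic loess its log2 change was 0.73 in M1 (limma adjusted p = 0.023) and 0.63 in I1 (adjusted p = 0.0364), where 10.1% and 8.49% of all genes were called. After quantile normalization it was 0.75 in M1 (adjusted p = 0.0341) and 0.67 in I1 (adjusted p = 0.0493), where 6.46% and 5.39% of all genes were called.

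Foxa3, the forkhead relative most tied to adult liver, had 7.12 and 8.06 in M1 and 7.11 and 7.20 in I1, against 7.29 and 7.33 in BL185. Its signal was below the array median on 5 of 6 arrays and passed it on M1 replicate 2, by 0.13. No size of change can be read from such values.

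Cebpa, a leucine zipper factor that restrains proliferation and drives gluconeogenic genes, had log2 signals of 8.74 and 9.13 in M1 and 9.14 and 9.06 in I1, against 9.62 and 9.57 in BL185. All 4 arrays of the selected lines lay below both parental arrays. Both arrays lay below those of BL185 for 25.7% of all genes in M1 and 33.5% in I1. The log2 change was -0.66 ± 0.20 in M1 (SE, 95% interval -1.17 to -0.15, limma unadjusted p = 0.0206, adjusted p = 0.24). In I1 it was -0.50 ± 0.20 (95% interval -1.01 to 0.01, adjusted p = 0.445). M1 and I1 differed by less than their spread, with I1 minus M1 at 0.16 (95% interval -0.35 to 0.67). Its relatives of the same family were also measured. Cebpb, induced in inflammation and regeneration, had 11.75 and 12.33 in M1 and 12.23 and 12.05 in I1, against 13.24 and 13.07 in BL185, a log2 change of -1.12 in M1 (limma adjusted p = 0.142) and -1.01 in I1 (adjusted p = 0.204).

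Nr1h4, the bile acid receptor FXR, had log2 signals of 9.09 and 8.47 in M1 and 9.07 and 9.26 in I1, against 8.41 and 8.37 in BL185. Both arrays of each selected line lay above both parental arrays, M1 replicate 2 by 0.08 from the BL185 mean. Both arrays lay above those of BL185 for 26.2% of all genes in M1 and 42.6% in I1. The log2 change was 0.39 ± 0.26 in M1 (SE, limma adjusted p = 0.448). In I1 it was 0.77 ± 0.26 (95% interval 0.13 to 1.42, unadjusted p = 0.0273, adjusted p = 0.339). In order of mean signal the lines ran I1, M1 and BL185, and the neighbours did not differ beyond the spread of the fit.

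Nr1i3, the xenobiotic receptor CAR, had 8.23 and 7.87 in M1 and 7.95 and 7.85 in I1, against 7.62 and 7.48 in BL185. All 4 arrays of the selected lines were above the parent's, and the log2 change was 0.50 ± 0.20 in M1 (SE, limma adjusted p = 0.328) and 0.35 ± 0.20 in I1 (adjusted p = 0.609). Such a position was held by 26.2% of all genes in M1 and 42.6% in I1. Only 2 of the 6 Nr1i3 values exceeded the median of their array. Its signal thus could not be told from background, and no size of change can be read. Nr5a2, the receptor LRH-1, had 8.26 and 7.76 in M1 and 7.63 and 7.82 in I1, against 7.92 and 8.16 in BL185. The lines overlapped, apart from I1 and BL185, and the 3 other probe sets lay below the median on every array. Prox1, the homeobox factor, had 7.39 and 6.64 in M1 and 6.55 and 7.18 in I1, against 6.64 and 6.68 in BL185. Its 3 probe sets lay below the median of all 6 arrays, so Prox1 expression could not be told from background in any line.

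**Figure D3:**
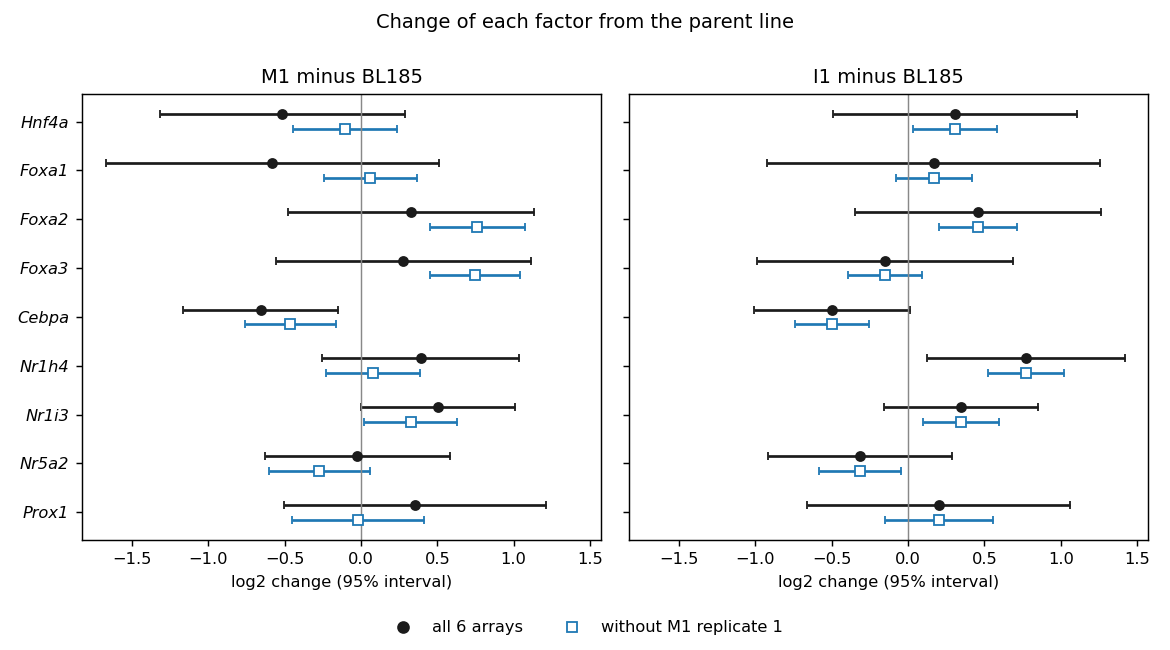
Log2 change (x axis) of each factor (y axis) from BL185 with its 95% interval, for M1 on the left and I1 on the right, from all 6 arrays (filled circles) and without M1 replicate 1 (open squares). Without that array all intervals shorten, those of Foxa2, Foxa3 and Nr1i3 in M1 come to lie above 0, and the M1 changes of Hnf4a and Foxa1 move towards 0.

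The 2 M1 arrays disagreed on most factors, along with their signal level. On M1 replicate 1, Foxa1 read 1.29 lower than on replicate 2, Foxa2 0.87 lower and Hnf4a 0.82 lower. Among all genes with a mean signal of at least 10, the median of that difference was -0.90. Prox1 read 0.75 higher on replicate 1, Nr5a2 0.50 higher and Nr1i3 0.35 higher, and among all genes with a mean under 8 the median difference was 0.29. Foxa3, at 0.94 lower, and Nr1h4, at 0.62 higher with a mean of 8.78, did not follow their level. The spread used in every test pools the 3 lines, so the gap between the 2 M1 arrays also widened the errors for I1. With 1 M1 array left, that array adds nothing to the spread. The fit of I1 against BL185 is then the same by construction, whichever M1 array is left out.

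Without M1 replicate 1, the M1 line rests on 1 array, and its spread is borrowed from I1 and BL185. In that fit 3 of 9 members passed the test in M1, where 24.0% of all genes did, and 4 of 9 in I1, where 46.6% did, shares near those of all genes. Those called in M1 were Foxa2 (log2 change 0.76 ± 0.15, limma adjusted p = 0.00126), Cebpa (-0.46 ± 0.14, adjusted p = 0.0236) and Foxa3 (adjusted p = 0.000966), whose size of change cannot be read so close to background. Those called in I1 were Nr1h4 (0.77 ± 0.12), Cebpa (-0.50 ± 0.11), Foxa2 (0.46 ± 0.12) and Nr1i3, whose size of change likewise cannot be read. Hnf4a was not among them, at -0.11 ± 0.16 in M1 (adjusted p = 0.759) and 0.31 ± 0.13 in I1 (adjusted p = 0.0657). Between I1 and M1, Nr1h4 was called higher (0.69 ± 0.14, adjusted p = 0.00484) and Foxa3 lower (adjusted p = 0.000711, again with no readable size), where 20.6% of all genes were called. Without M1 replicate 2 instead, 6 of 9 members were called in M1, where 70.8% of all genes were, and the fitted changes of Foxa2 and Foxa3 turned negative. The calls in M1 thus rested on which of its 2 arrays was kept, and of the 9 factors Cebpa was called with either array left out.

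The genes whose profile was most like that of Hnf4a, the member with the largest range of line means (0.82), were F3, which encodes tissue factor, Egln3, a prolyl hydroxylase of the hypoxia pathway, and Epb41l4b, a band 4.1 family protein. Pearson's r with Hnf4a over the 6 arrays was 0.9949, 0.9925 and 0.9899, among 2717 genes whose line means spanned at least 1 log2 unit. F3 read 10.67 and 11.97 in M1 and 12.47 and 13.05 in I1, against 12.26 and 12.45 in BL185. M1 replicate 1 was the lowest array for all 4 genes, and the arrays share their lines and their range of signals.

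Other liver transcription factors gave 0 of 27 members called in M1 and 0 of 27 in I1. Their median log2 change was -0.06 in M1 and -0.00 in I1, beside 0.07 and 0.06 over all genes. The 2 with the smallest p were Dbp, a clock-controlled leucine zipper factor (-2.28 ± 0.31 in M1, limma adjusted p = 0.054, and -0.44 ± 0.31 in I1, adjusted p = 0.664), and Zfhx3, a zinc finger homeobox factor (-0.70 ± 0.17 in M1, adjusted p = 0.159, and -1.13 ± 0.17 in I1, adjusted p = 0.0849). Without M1 replicate 1, 2 rose and 6 fell of 27 in M1 (29.6%, beside 24.0% of all genes), and 4 rose and 10 fell in I1 (51.9%, beside 46.6%). Among 17 measured relatives of the members 0 were called, and those with the smallest p were Foxo1, a forkhead factor of insulin signalling (-0.96 ± 0.21 in M1, adjusted p = 0.128), and Cebpb.

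Cofactors of the nuclear receptors lay mostly below the parent. Of 12 measured, 12 had a negative change in M1 and 11 in I1, with medians of -0.63 and -0.57, and 0 were called in either line. Over all 18193 genes, 8094 had a negative change in M1 and 7888 in I1. Without M1 replicate 1 the cofactor median was -0.32 in M1 and stayed at -0.57 in I1, beside 0.03 and 0.06 over all genes. Ncoa1, a coactivator of nuclear receptors, had 8.09 and 9.50 in M1 and 8.91 and 9.16 in I1, against 10.74 and 10.62 in BL185. Its log2 change was -1.88 ± 0.47 in M1 (limma adjusted p = 0.171) and -1.65 ± 0.47 in I1 (adjusted p = 0.259). Ppargc1a, a coactivator of Hnf4a in fasting liver, had means of 7.51 in M1 and 7.17 in I1, against 7.73 in BL185, all under the array medians. Without M1 replicate 1, 11 of the 12 changes were negative in M1 and 11 in I1. Over all 18193 genes, 7971 were negative in M1 and 7888 in I1 in that fit. Rxra, the obligate partner of Nr1h4 and Nr1i3, read 9.50 and 9.92 in M1 and 10.15 and 10.21 in I1, against 10.15 and 10.27 in BL185, values given because of that partnership and chosen after they were seen.

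**Figure D4:**
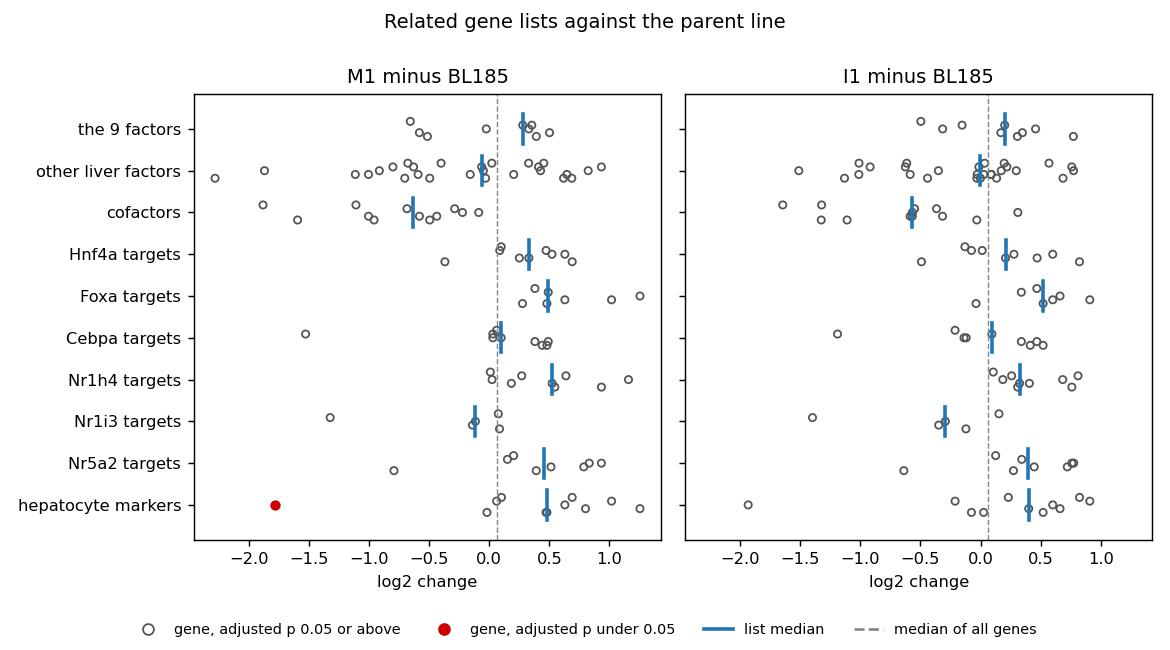
Log2 change from BL185 (x axis) of each measured gene in the lists named on the y axis, for M1 on the left and I1 on the right, with a bar for each list's median and a dashed line for the median of all genes (0.07 and 0.06). The filled point marks Fgb in M1, the gene of these lists that passed the test, and the cofactors have medians of -0.63 and -0.57.

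Known target genes of the factors were described in the same way, and 0 members of any target list were called in either line. Of 7 Foxa targets, 7 had a positive change in M1 and 6 in I1 (medians 0.49 and 0.52). Apoa1, the main protein of high-density lipoprotein, had 9.27 and 7.65 in M1 and 8.39 and 8.32 in I1, against 7.42 and 7.47 in BL185, and Ttr, the transthyretin gene, had 9.92 and 8.97 in M1 and 9.43 and 9.40 in I1, against 8.72 and 8.91 in BL185. In M1 the high values were those of replicate 1. Without that array the median of the Foxa targets was 0.09 in M1 and stayed at 0.52 in I1. In I1, 6 of 7 had both arrays above both BL185 arrays, a position held by 42.6% of all genes. Only 3 of the 7 had a mean signal of at least 8.

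The 9 measured targets of Nr1h4 were not called in either line with all 6 arrays. Each had both I1 arrays above both BL185 arrays, a position held by 42.6% of all genes. Their median log2 change was 0.52 in M1 and 0.32 in I1, and the M1 median was 0.06 without M1 replicate 1. Slc51b, a bile acid exporter subunit, had 9.26 and 8.10 in M1 and 9.03 and 8.68 in I1, against 7.99 and 8.09 in BL185 (limma adjusted p = 0.445 in M1 and 0.551 in I1). Abcb4, the phospholipid exporter of the bile canaliculus, had 9.47 and 9.07 in M1 and 8.95 and 9.35 in I1, against 8.66 and 8.83 in BL185 (adjusted p = 0.381 and 0.625). Without M1 replicate 1, 0 of 9 were called in M1, beside 24.0% of all genes, and 5 of 9 (55.6%) in I1, beside 46.6%. Only 4 of the 9 had a mean signal of at least 8.

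Hnf4a targets had medians of 0.33 in M1 and 0.21 in I1 over 9 genes, and the M1 median was 0.15 without M1 replicate 1. Mttp, which loads lipid onto apolipoprotein B, stood lower, with 8.69 and 8.59 in M1 and 8.43 and 8.59 in I1, against 9.01 and 9.01 in BL185 (limma adjusted p = 0.377 and 0.357), and the apolipoprotein gene Apoa2 had changes of 0.52 in M1 and 0.28 in I1. Cebpa targets had medians of 0.10 and 0.09 over 9 genes, among which the fat cell regulator Pparg had 10.23 and 10.54 in M1 and 10.47 and 10.99 in I1, against 11.80 and 12.03 in BL185 (log2 changes of -1.53 and -1.19, adjusted p = 0.078 and 0.16). Haptoglobin, Hp, another Cebpa target, read 7.79 and 7.62 in M1 and 7.78 and 7.57 in I1, against 7.26 and 7.26 in BL185. These values lay under the array medians, so no size of change can be read. Only 3 of the 9 Cebpa targets had a mean signal of at least 8. Of 5 Nr1i3 targets the canalicular exporter Abcc2 differed the most, with 6.87 and 6.82 in M1 and 6.63 and 6.92 in I1, against 8.24 and 8.10 in BL185 (adjusted p = 0.059 and 0.0675), values that exceed the array medians in BL185 alone. Cyp3a11, a drug-metabolising enzyme, stayed under the medians in every line. Among 8 Nr5a2 targets, which had medians of 0.45 in M1 (0.13 without M1 replicate 1) and 0.39 in I1, the cyclins Ccnd1 and Ccne1 had the smallest p. Ccnd1 read 13.83 and 14.28 in M1 and 13.93 and 14.07 in I1, against 13.20 and 13.24 in BL185 (adjusted p = 0.184 and 0.248).

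The label of the cells was set against hepatocyte markers. The cytokeratin genes Krt8 and Krt18 read 14.78 to 15.23 on all arrays. Albumin, Alb, the defining product of hepatocytes, lay near the array medians, at 8.43 and 7.66 in M1 and 8.07 and 8.10 in I1, against 7.60 and 7.53 in BL185, and the fetal liver protein Afp read 9.89 and 7.15 in M1 and 7.86 and 7.99 in I1, against 7.39 and 7.14 in BL185. Hnf4a and Foxa2 signal above the medians on every array thus stood beside albumin signal near or below them. In every line albumin could not be told from background. Apob, a marker of the same list, lay above the medians on every array. It read 11.26 and 12.71 in M1 and 11.70 and 12.54 in I1, against 10.88 and 11.70 in BL185. Apob was named after its values were seen. A mean signal of at least 8 was reached by 8 of the 11 hepatocyte markers. Of 11 hepatocyte markers, 9 had a positive change in M1 and 8 in I1 (medians 0.48 and 0.40, and 0.11 in M1 without M1 replicate 1), and 1 was called, the fibrinogen chain Fgb, which fell in M1 (limma adjusted p = 0.0469; adjusted p = 0.0501 in I1). Fgb read 7.47 and 7.93 in M1 and 7.44 and 7.66 in I1, against 9.51 and 9.46 in BL185, so that the selected lines lay at or under the array medians and the exact size of the difference cannot be read. Of 6 bile duct and progenitor markers, 2 had a positive change in M1 and 4 in I1 (medians -0.18 and 0.12). Their mean signal was 10.72 to 10.88 in M1 and 11.01 to 11.09 in I1, against 11.53 to 11.61 in BL185. A mean signal of at least 8 was reached by 5 of the 6. Of these 6, Prom1 fell in both lines (limma adjusted p = 0.0168 in M1 and 0.0291 in I1). Prom1 read 7.99 and 8.40 in M1 and 8.41 and 8.36 in I1, against 11.19 and 11.05 in BL185. The selected lines lay near the array medians, so the exact size of the Prom1 difference cannot be read. Sox9 fell in M1 (-2.06 ± 0.23, adjusted p = 0.0343) and stood lower in I1 without passing the test (-1.35 ± 0.23, adjusted p = 0.0996). The 4 other bile duct markers had both I1 arrays above both BL185 arrays, a position held by 42.6% of all genes.

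Markers of other cell types were read for the same arrays. Of 6 leukocyte markers, 4 had a positive change in M1 and 4 in I1 (medians 0.20 and 0.17). Cd68 fell in both lines (limma adjusted p = 0.0147 in M1 and 0.0262 in I1). Cd53 fell in M1 (limma adjusted p = 0.0469) and stood lower in I1 without passing the test (adjusted p = 0.0766). Cd53 read 8.08 and 7.86 in M1 and 8.35 and 7.99 in I1, against 9.67 and 9.58 in BL185. The selected lines lay near or under the array medians, so the exact size of the Cd53 difference cannot be read. Cd68 read 7.51 and 7.37 in M1 and 7.78 and 7.41 in I1, under the array medians, against 10.74 and 10.56 in BL185, so the exact size of its difference cannot be read. The pan-leukocyte gene Ptprc, named after its values were seen as the defining marker of the list, lay at 6.25 to 7.17 on all arrays, under the medians. The mean signal of the leukocyte list was 7.58 to 8.10 in M1 and 7.77 to 7.91 in I1, against 8.40 to 8.44 in BL185. Of 8 fibroblast markers 0 were called, with a mean signal of 7.96 to 8.31 in M1 and 8.04 to 8.17 in I1, against 7.78 to 7.88 in BL185, and with Col1a1 at 7.22 to 8.41 and Dcn at 7.99 to 8.73. Of 6 endothelial markers 0 were called, with Pecam1 at 6.61 to 7.76 and Stab2 at 7.36 to 7.63. The part of other cells in the factor signals was not tested, and in bulk RNA fewer cells of a type and less RNA per cell cannot be told apart.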

How the data were processed

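Total RNA of the 3 lines was labelled and hybridised to 6 mouse arrays. The authors deposited log2 signals, 1 for each probe set on each array. Per the submitters' processing notes, RMA and the affy package made them, and the sources used here give no versions or settings. Their scale was inferred from the values, which lie between 5.8 and 15.4.

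Of 45101 probe sets, 34945 named a single gene, and the brightest on average stood for its gene, leaving 18193 genes. Sample titles gave lines and replicate numbers. In limma 3.58.1 (R 4.3.3), line means were estimated from all 6 arrays with 3 residual degrees of freedom, followed by eBayes and Benjamini-Hochberg adjustment over all genes of a comparison. The threshold was 0.05, and errors of log2 changes are SEs. The procedure was tested on simulated data. Members and gene lists were chosen with earlier results of these data known. Genes named by rule are the 9 members, each list's called genes (at most 4) or else the 2 of smallest p, 5 hepatocyte markers and the 3 genes most like Hnf4a. Apob, Ptprc, Rxra, Tef, Hlf, Hhex and Gata4 were added after their values were seen. List genes lacking a probe set of their own were not analysed here. Sequences came from RefSeq (GRCm38.p6). Python 3.11.15 with pandas 2.3.3 and matplotlib 3.10.9 served for sequences and figures. Unused columns of sample values numbered 0. Having only 6 arrays limits the precision of every value.

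Alternatives were a minimum mean of 8, averaged probe sets, testing all probe sets, cyclic loess, quantile normalization, an offset of 50 on the linear scale, a trend in eBayes, the replicate number as a block, and each array left out. Counts of the other gene lists without M1 replicate 1 were added after the data were seen.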

Additional observations from a re-analysis of the deposited data

Results flagged for a closer look

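Hnf4a was singled out because both M1 arrays lay below both BL185 arrays and both I1 arrays lay above them, so that the 2 selected lines lay on opposite sides of the parent. Of all genes, 25.7% had both M1 arrays below and 42.6% both I1 arrays above those of BL185. The share of genes with both positions together was not counted. The log2 difference of I1 minus M1 was 0.82, with an unadjusted p of 0.0461 and an adjusted p of 0.9999 by limma over all genes. M1 replicate 1 lay 0.92 and M1 replicate 2 lay 0.11 below the BL185 mean, and without replicate 1 the difference was 0.41 (adjusted p = 0.0799). The mean of the 4 Hnf4a probe sets changed sign in I1.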

How the results depend on the processing

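The pooled spread, to which the M1 arrays contributed most, limits every call. The count of genes called was 160 in M1 (31.2% higher) and 93 in I1 (37.6% higher) against BL185 and 0 between I1 and M1. It was 1831 (46.3% higher), 1544 (49.5% higher) and 51 after cyclic loess, and 1176 (53.8% higher), 981 (62% higher) and 6 after quantile normalization. With the replicate block it was 38, 1 and 0, and the block called 0 members; same-numbered arrays deviated from their line means with correlations of 0.37 (M1 and I1), -0.13 (M1 and BL185) and 0.16 (I1 and BL185), so the numbers were not taken to pair them. Averaging probe sets by gene gave 338 in M1, every probe set 264 in M1 and 203 in I1, and a minimum mean of 8 gave 1 between I1 and M1. Leaving out each array gave 0 to 12879, 0 to 8481 and 0 to 10365.

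Members called were 0 of 9 in the 3 comparisons and 1 (Foxa2) in M1 and in I1 after cyclic loess and after quantile normalization. Of the 17 probe sets, 1 was called in M1 after each scaling and 1 in I1 after cyclic loess. With each array left out the member counts were 0 to 6 in M1, 0 to 4 in I1 and 0 to 6 between I1 and M1, and the probe set counts 0 to 9, 0 to 5 and 0 to 7. The minimum of 8 left out the 4 dimmest members.

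Signs turned in Nr5a2 in M1 (0.0641) and Hnf4a in I1 (-0.0151) with the mean of all probe sets, and in Foxa2 for I1 minus M1 after cyclic loess (-0.0995) and quantile normalization (-0.0794). With arrays left out, the M1 changes ran from -1.23 to 0.0621 for Foxa1, -0.10 to 0.76 for Foxa2, -0.19 to 0.75 for Foxa3, -0.27 to 0.22 for Nr5a2 and -0.0192 to 0.726 for Prox1, and the I1 change of Prox1 from -0.11 to 0.52. I1 minus M1 ran from -0.30 to 0.56 for Foxa2, -0.90 to 0.0365 for Foxa3, -0.0342 to 0.356 for Cebpa, -0.33 to 0.0235 for Nr1i3 and -0.53 to 0.22 for Prox1. The causes were not tested. Cebpa, Nr1h4 and Nr1i3 kept their direction from BL185 in both lines under every alternative that gave them a value. The signal of Nr1i3 lay near or below the array medians, where it cannot be told from background.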

Other observations

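Dbp, Tef and Hlf, the leucine zipper factors through which the circadian clock drives liver detoxification genes, were measured beside the members. Dbp read 8.52 and 9.35 in M1 and 10.73 and 10.83 in I1, against 11.26 and 11.17 in BL185. Both M1 arrays lay below all others, and I1 exceeded M1 by 1.84 ± 0.31 on the log2 scale (SE, limma unadjusted p = 0.00151, adjusted p = 0.621). Tef read 10.89 and 11.38 in M1 and 11.62 and 11.78 in I1, against 11.71 and 11.74 in BL185 (adjusted p = 0.315 in M1 and 0.964 in I1). Hlf lay near the array medians in every line. Hhex, a homeobox factor of liver bud outgrowth, read 10.97 and 12.12 in M1 and 11.30 and 11.69 in I1, against 10.77 and 10.68 in BL185, above the parent on all 4 arrays (adjusted p = 0.401 and 0.573). Gata4, an endoderm factor that opens liver chromatin with Foxa proteins, read 8.17 and 9.14 in M1 and 8.86 and 8.81 in I1, against 9.44 and 9.48 in BL185, below the parent on all 4 (adjusted p = 0.35 and 0.586). Both arrays lay above the parent's for 26.2% of all genes in M1 and 42.6% in I1, and below for 25.7% and 33.5%. Tef, Hlf, Hhex and Gata4 were chosen after their values were seen, and 0 of these 5 genes passed the test.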
